A study of Caenorhabditis elegans with 2 samples.

Results

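The regions described here are promoters of protein-coding genes with high signal for tagged NHR-232 in late embryos of the nematode Caenorhabditis elegans, away from genes for small RNAs. They were taken from the 1000 regions of highest signal in the authors' list of candidate regions, which was called on pooled replicates and holds 21094 regions. That list is labelled as peaks and background, so a place in it is not a call of binding. A region was kept when it was nuclear and its summit, the position of highest signal within it, lay between 1000 bp upstream and 200 bp downstream of the 5′ end of a protein-coding gene. Summits inside a noncoding RNA gene, or within 200 bp of a transfer RNA, small nucleolar RNA or small nuclear RNA gene, were left out, as were promoters of genes named rpl-, rps-, hsp- or dnj-. Of the 1000 strongest regions, 983 were nuclear and 398 had their summit in such a promoter. Noncoding RNA genes removed 112 of these and the named gene families 13, which left 273 regions at 358 genes. The regions were thus chosen by their signal in the pooled list, and signal values are given as a description, with no test. None of the 273 lay within 200 bp of a pseudogenic tRNA of the RefSeq annotation either, and the nearest tRNA, snoRNA or snRNA gene to any summit was 256 bp away.

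The data are from chromatin immunoprecipitation followed by sequencing (ChIP-seq), which recovers DNA fragments crosslinked to a protein. The worms were hermaphrodites of strain OP489, which has the genotype unc-119(tm4063) III and carries the integrated transgene wgIs489. That transgene adds NHR-232 with GFP and FLAG at its C-terminus, so the signal is that of a tagged protein made from a transgene in whole animals. Embryos were collected 5 hours after bleaching of the eggs. The 2 biological replicates form 1 group, and no comparison between conditions can be made; the control experiment was not analysed here.

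NHR-232 is named as a nuclear hormone receptor. Such receptors are transcription factors with a zinc-finger DNA-binding domain and, in most members, a ligand-binding domain, and the family is greatly expanded in nematodes. A promoter is the stretch at the start of a gene where transcription factors and RNA polymerase assemble. In the compact worm genome, neighbouring genes on opposite strands often share 1 stretch of DNA between their 5′ ends, called a divergent promoter. Many worm genes have their 5′ end trimmed by trans-splicing, so an annotated 5′ end is often not the place where transcription starts.

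The strongest regions are shown first, because their sequences carry a shared feature that is described further on. The summit and 50 bases on each side are printed, on the plus strand, for the 8 strongest regions whose window overlaps no annotated exon, with 1 chromosome left out of the printing. Capitals mark GGGCGG and a gapped word, CGGCNNNNTTG, in which N is any base; the sequences are those of the WBcel235 assembly as held by RefSeq, which has the same build as the ce11 lists.

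idhg-1/mlcd-1 (chrIII:4568682-4568782, plus strand): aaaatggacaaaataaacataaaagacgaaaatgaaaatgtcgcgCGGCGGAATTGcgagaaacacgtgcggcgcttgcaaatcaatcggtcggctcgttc
atx-2/ecps-1 (chrIII:10461265-10461365, plus strand): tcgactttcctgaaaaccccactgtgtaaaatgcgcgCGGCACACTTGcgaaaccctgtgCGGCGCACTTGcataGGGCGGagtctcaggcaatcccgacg
K12H4.5 (chrIII:8043921-8044021, plus strand): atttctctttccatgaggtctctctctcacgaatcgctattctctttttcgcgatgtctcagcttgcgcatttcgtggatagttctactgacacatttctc
M01F1.9 (chrIII:3499989-3500089, plus strand): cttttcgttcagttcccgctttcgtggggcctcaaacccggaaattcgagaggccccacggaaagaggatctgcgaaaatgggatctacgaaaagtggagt
B0495.9/sre-1 (chrII:7708749-7708849, plus strand): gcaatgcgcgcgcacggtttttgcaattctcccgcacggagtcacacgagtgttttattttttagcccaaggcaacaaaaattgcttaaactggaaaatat
C16C10.4/rnf-121 (chrIII:4171116-4171216, plus strand): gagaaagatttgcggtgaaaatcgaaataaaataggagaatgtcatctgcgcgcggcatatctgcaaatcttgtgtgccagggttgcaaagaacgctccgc
R148.3 (chrIII:3175116-3175216, plus strand): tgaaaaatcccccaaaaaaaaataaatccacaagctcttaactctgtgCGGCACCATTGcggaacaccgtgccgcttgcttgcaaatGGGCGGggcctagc
sms-3 (chrIII:1601621-1601721, plus strand): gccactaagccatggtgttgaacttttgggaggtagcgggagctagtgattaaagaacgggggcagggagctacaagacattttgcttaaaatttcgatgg

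The gapped word stood in the windows of idhg-1/mlcd-1, atx-2/ecps-1 and R148.3, and that of atx-2/ecps-1 held it at 2 places. The other 5 windows did not hold these letters.

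The region between idhg-1 and mlcd-1 was the strongest, at rank 17 of the pooled list. The gene idhg-1 encodes a subunit of the mitochondrial NAD-dependent isocitrate dehydrogenase, an enzyme of the citric acid cycle, and mlcd-1 encodes a malonyl-CoA decarboxylase, an enzyme of fatty acid metabolism. The region (chrIII:4568609-4568884) had a pooled signal of 439.8, and 234.8 in replicate 1 and 203 in replicate 2. Its summit lay 65 bp upstream of idhg-1 and 602 bp upstream of mlcd-1, in intergenic DNA. The second region, at rank 19 (chrIII:10461179-10461475), lay between atx-2, which encodes the worm homologue of the RNA-binding protein ataxin-2, and ecps-1, which encodes a protein with a domain of the proteasome component Ecm29. Its signal was 436 in the pool, 214 in replicate 1 and 221 in replicate 2.

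The strongest region at a single promoter was that of K12H4.5, an uncharacterized gene, with a signal of 418 in the pool, 227 in replicate 1 and 194 in replicate 2. M01F1.9, whose product has an arrestin domain, had a region whose summit lay at -982 bp from its 5′ end, in an intron of another gene, with 395, 190 and 204. W01D2.3, annotated as a receptor expression-enhancing protein, had 2 regions upstream, at ranks 47 and 99. Their pooled signals were 358 and 247. Both lay within 200 bp of genes annotated as other noncoding RNAs, W01D2.7 at 9 bp and W01D2.9 at 20 bp.

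The other regions among the 10 strongest were all at divergent promoters. The region of B0495.9 and the chemoreceptor gene sre-1 had a pooled signal of 290.4, with 144 in replicate 1 and 139 in replicate 2. Its summit lay 89 bp upstream of B0495.9 and 905 bp upstream of sre-1. The region between C16C10.4, annotated as the putative SAP18 subunit of a histone deacetylase complex, and rnf-121, a ubiquitin ligase gene, had 272 in the pool, 132 in replicate 1 and 138 in replicate 2. At ears-2, which encodes a mitochondrial glutamyl-tRNA synthetase, and uncp-18, which encodes a syntaxin-binding protein, the pooled signal was 269, with 133 and 135. At spe-48 and Y51F10.11 it was 268, with 145 and 116. In the 10 strongest regions the higher replicate value was at most 1.25 times the lower, and in 7 of them the summit lay within 300 bp upstream of an annotated 5′ end.

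Single promoters continued with R148.3 at a pooled signal of 235.08 and sms-3 at 232. The gene sms-3 encodes an enzyme of sphingolipid synthesis.

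Over all 273 regions the pooled signal had a median of 86.5 (quartiles 76.1 and 112), and the authors' −log10 q value had a median of 1.72. A region had a summit within 100 bp in replicate 1 for 263 of them and in replicate 2 for 264, and in both for 254 (93.0%, 95% interval 89.4 to 95.5). Where both were matched, replicate 2 over replicate 1 had a median log2 ratio of 0.15 (quartiles -0.20 and 0.46), and the log2 ratio ran from -1.81 to 1.76. The region of nhr-142, at rank 465, had 43.6 in replicate 1 and 15.9 in replicate 2, and that of mdt-6 had 60.0 and 118. Read totals are not known, so depth cannot be set against these ratios.

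**Figure D1:**
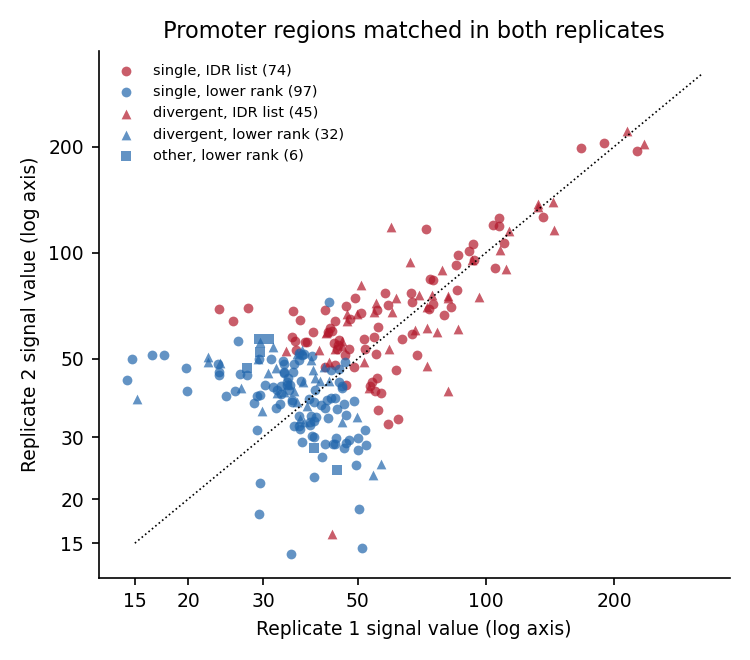
Signal value of each promoter region in replicate 1 (x axis) and replicate 2 (y axis), both on log axes, for the 254 regions matched in both; colour marks regions on the IDR list (red) and of lower rank (blue), shape the promoter type, and the dotted line equal values. The strongest regions lie near the line, and the lower-ranked ones scatter more widely on both sides of it.

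Part of the regions were on the authors' IDR list. IDR stands for irreproducible discovery rate, a procedure based on how alike replicates rank the regions. The list held 123 of the 273 promoter regions, and 150 were of lower rank. The median −log10 q value was 1.63 in the listed regions and 1.74 in those of lower rank, so the regions of higher signal had the lower median. The IDR list consists of the 519 regions of highest pooled signal, so it is a cut of the same ranking that chose the promoters. A listed region thus need not rank alike in both replicates. The region of nhr-142 was listed, and 119 of the 123 listed promoter regions had a match in replicate 1. Of all 21094 candidates 2.46% were on the IDR list. The last promoter regions on the list were those of nduf-11, at rank 512 with a signal of 90.2, and of szy-20 and C18E9.5 at rank 518 with 89.7. The first ones off it were those of immt-1 at rank 521 with 89.2 and of unc-73 at rank 527 with 88.8. At the end of the ranking stood C14A11.2 at rank 999 with 68.9 and ZK154.5 at rank 1000 with 68.8, and the next promoters, rsu-1 at rank 1002 and lag-2 at rank 1005, had 68.8 and 68.7. Values on both sides of each limit were nearly the same.

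The matching was also done with the strongest 1000 regions of each replicate alone. Of all candidates, 2.55% had a summit within 100 bp of one in both of these lists. Of the 123 promoter regions on the IDR list, 107 did (87.0%), and of the 150 of lower rank, 25 did (16.7%). The 25 lower-ranked ones are thus a minority, and 18 of the 273 were in neither list. These values depend on the ranking that chose the regions and describe it.

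Next, divergent promoters were set beside single ones. A promoter was called divergent when the summit lay in the windows of genes on both strands whose 5′ ends point away from each other, and single when it lay in the window of 1 gene. There were 80 divergent regions, 187 single and 6 of another arrangement. By the nearest 5′ end on each side of the summit, whatever its distance, 155 of the 273 lay between 5′ ends that point apart (56.8%). Some regions called single here were thus also between such genes, with 1 gene beyond the window. The comparisons below use the windows and were not made by the nearest 5′ ends. The divergent share was 29.3% (95% interval 24.2 to 35.0), against 661 of 4701 lower-ranked promoter candidates that passed the same filters (14.1%, interval 13.1 to 15.1). The difference was 15.2 points (interval 10.1 to 21.0). The same comparison among intergenic summits gave 31.8% and 16.5%, a difference of 15.2 points (interval 9.49 to 21.5). Of positions laid every 1000 bp along the genome that passed the same filters, 9.36% were divergent. These intervals cover counting error over regions, which are not replicates. The lower-ranked candidates had a median −log10 q value of 0.128, against 1.72 for the 273 regions, and come from a list that includes background.

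Divergent regions were more often on the IDR list: 46 of 80 (57.5%), against 77 of 187 single ones (41.2%). The difference was 16.3 points (interval 3.26 to 28.6). Its interval included 0 when replicate 1 was left out (10.02 points, interval -2.46 to 22.2), with promoters from 500 bp upstream (12.5 points, interval -2.98 to 27.0) and among intergenic summits (13.3 points, interval -0.36 to 26.2). Leaving out a replicate changed which regions were taken, while the authors' IDR list of the pooled replicates stayed the same. By the lists of each replicate alone, 63.8% of the divergent and 43.3% of the single regions were among the strongest 1000 of both, a difference of 20.4 points (interval 7.36 to 32.3). Both describe the same ranking and are not independent of each other. The median pooled signal was 99.1 at divergent and 85.3 at single promoters.

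The divergent share was highest among the strongest regions. It was 47.6% in the 42 promoter regions of ranks 1 to 250, 32.1% in ranks 251 to 519 and 22.7% in ranks 520 to 1000. Beyond the strongest 1000 it was 21.5% in ranks 1001 to 2000, 17.3% to rank 5000, 15.1% to rank 10000 and 11.7% to the end of the list. The first block had an interval of 33.4 to 62.3, which overlaps that of the second, 22.9 to 42.9, but not that of the third, 16.7 to 30. The rank blocks were chosen after the data were seen.

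**Figure D2:**
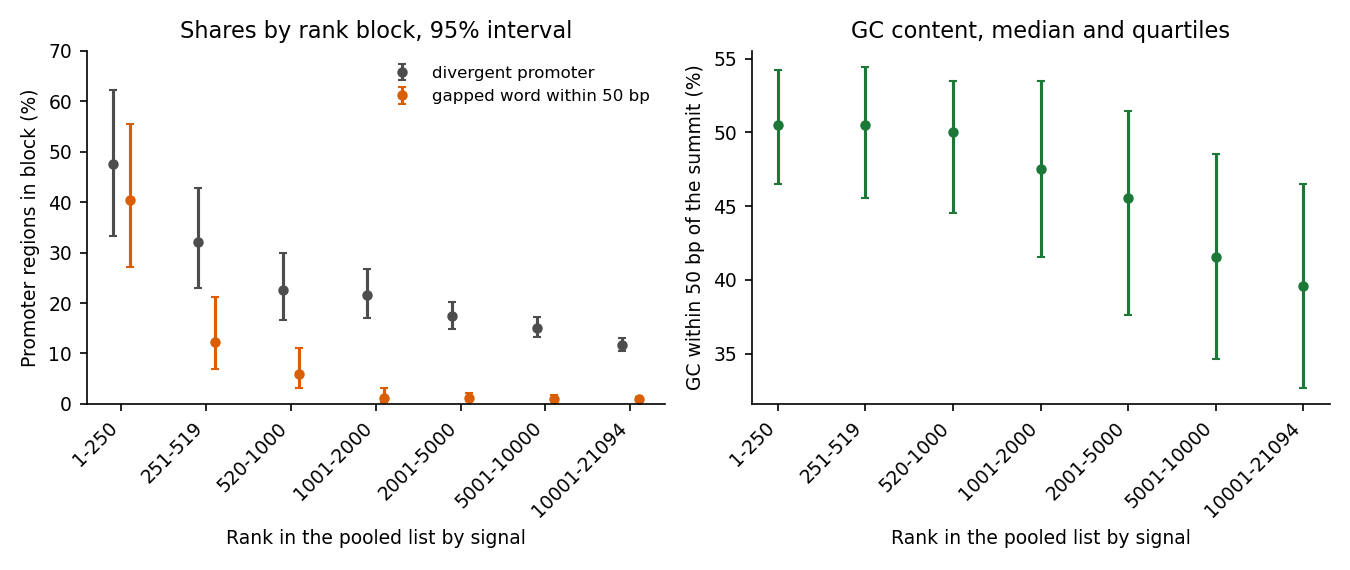
Left, share of promoter regions (%) that are divergent (grey) or hold the gapped word within 50 bp of the summit (orange) in blocks of the pooled list by rank, with 95% intervals; right, GC content (%) within 50 bp of the summit, median and quartiles. The shares fall from 47.6% and 40.5% in ranks 1 to 250 to 11.7% and 0.931% in the last block, and median GC from 50.5% to 39.6%.

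The 5′ ends of a divergent pair stood a median of 531.5 bp apart (quartiles 335 and 761, range 60 to 1536). The summit lay between them in 76 of 80 regions, and in the central 50% of the gap in 52. It was a median of 140 bp from the nearer 5′ end and 344 bp from the farther. Pairs of 5′ ends up to 300 bp apart numbered 15, of which 8 were on the IDR list (53.3%). For gaps of 300 to 600 bp it was 19 of 31 (61.3%), and for wider gaps 19 of 34 (55.9%), so the share did not follow the gap in one direction.

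At single promoters the median summit position relative to the 5′ end was -260 bp, with quartiles of -515 and -153, and over all 273 regions it was -216 bp, with quartiles of -414 and -106. A divergent region has more than 1 gene to choose from, so the distance to its nearest 5′ end is in part shorter by construction. In all, 261 of 273 summits were upstream of the 5′ end (95.6%), against 79.7% of the lower-ranked candidates. Of the 273, 167 were within 300 bp upstream (61.2%), against 33.4%.

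**Figure D3:**
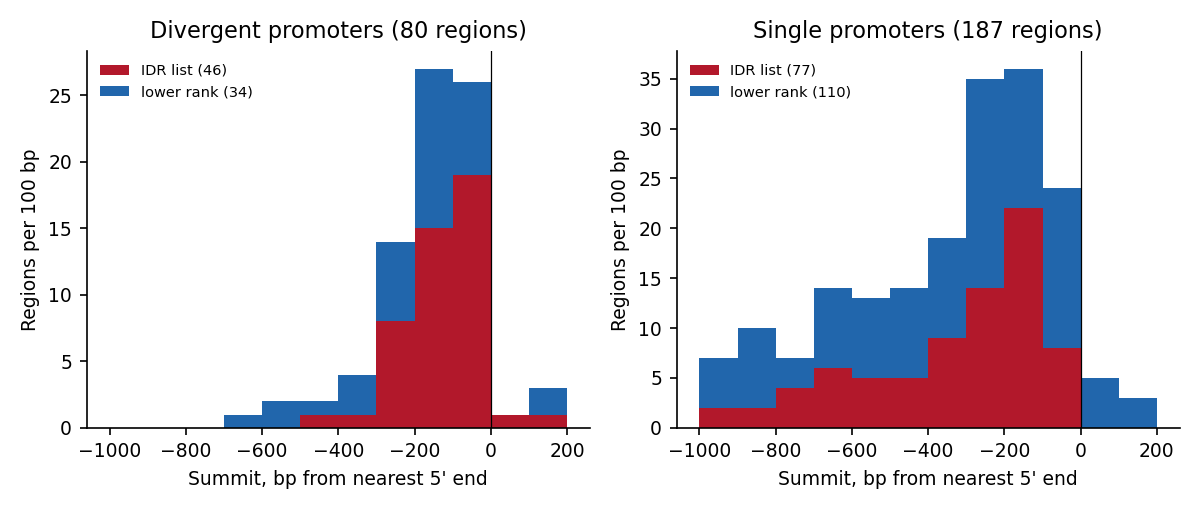
Number of promoter regions per 100 bp by the position of the summit relative to the nearest annotated 5′ end (bp, negative values upstream), for divergent (left) and single (right) promoters; stacked bars show regions on the IDR list (red) and of lower rank (blue). Most summits lie upstream, with the highest bars within 300 bp of the 5′ end, and single promoters have a longer tail upstream.

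The summits were mostly in DNA outside protein-coding genes. Intergenic summits made up 87.5% (interval 83.1 to 90.9), against 57.3% of the lower-ranked promoter candidates, a difference of 30.2 points (interval 25.6 to 33.9). Exons held 8.06% against 31.7%. Chromosome X held 61 of the 273 (22.3%, against 14.7% of lower-ranked candidates, a difference of 7.65 points, interval 2.99 to 13.0). Of these X regions 2 were divergent (3.28%), against 36.8% of the regions on the other chromosomes, where the range was 26.8% on II to 46.9% on IV. Lower-ranked candidates also had few divergent promoters on X, 32 of 691 (4.63%), against 15.7% elsewhere. Without X the divergent share among the regions was thus 36.8%.

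GC content around the summit was higher than in lower-ranked promoter candidates. The median within 50 bp of the summit was 50.5% (quartiles 45.5 and 54.5) against 41.6% (quartiles 34.7 and 48.5). It was 50.5% in the IDR regions and 50% in those of lower rank, and 49.0% at divergent and 50.5% at single promoters. Low mappability was rare, with 9 regions in which under 90% of the 50-mers occurred once in the genome.

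Of 16 sequence words looked for within 50 bp of the summit on both strands, GGGCGG, the core of the sites of GC-box factors, differed most from the lower-ranked candidates. It was in 40 of 273 windows (14.7%, interval 10.9 to 19.3), against 4.81% of the others, a difference of 9.84 points (interval 6.08 to 14.6). Windows of 45 to 55% GC gave 15.3% and 7.74%. GAGAGA, the repeat bound by GAGA-type factors, was in 17.2% against 11.4%, and CAGCTG, an E-box of basic helix-loop-helix factors, in 5.86% against 2.77%. In windows of like GC GAGAGA stood at 17.3% and 18.2%, so its higher share was not present there.

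Some other words were rarer than in the lower-ranked candidates. TGATAA, bound by GATA factors, was in 1.83% against 7.13%. TATAAA, the core of the TATA box, was in 3.30% against 8.76%, and TTTCAG, the sequence of the worm 3′ splice site, in 5.86% against 15.2%. AGGTCA, the half-site of many nuclear receptors, was in 1.83% against 2.77%, a difference of -0.93 points (interval -2.10 to 1.49). In windows of 45 to 55% GC the shares were 2% against 3.72% for TGATAA, 2.67% against 2.46% for TATAAA and 4.67% against 8.86% for TTTCAG, so the lower share of TATAAA was not present there. GTTCGA, part of the internal promoter of tRNA genes, was in 2.198% against 3.89%, a difference of -1.69 points whose interval included 0 (-3.02 to 0.87). Between the IDR regions and those of lower rank, CCAAT, the sequence of the CCAAT box, was in 7.32% against 18% (difference -10.7 points, interval -18.4 to -2.66), and AGTGCA in 8.94% against 2% (6.94 points, interval 1.57 to 13.4); the other 14 words had intervals of the difference that include 0.

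The gapped word CGGCNNNNTTG was read off the printed windows after the data were seen and is 1 of 13 spellings tried, so its shares are a description. Short words of fixed length were also ranked by their difference in share between the regions and the lower-ranked candidates before it was settled on. Of the 273 windows, 36 held it (13.2%, interval 9.68 to 17.7), in 38 places, against 1.00% of the lower-ranked candidates (interval 0.753 to 1.33). With the 8 windows it was read from left out, 33 of 265 held it (12.5%, interval 9.01 to 17.0). These 265 also entered the choice of spelling, so they are not an independent set. Positions every 1000 bp in promoters had it in 0.795%. Within windows of 45 to 55% GC the shares were 14.7% and 1.49%. A spelling with 1 more fixed base at each end was in 11.4% against 0.149%.

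More of the windows with the word are printed below to show what surrounds it. They are the 6 strongest further regions with the word, chosen by the same limits, in 61 bases on the strand on which the word reads CGGCNNNNTTG, with that word and GGGCGG in capitals.

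ears-2/uncp-18 (chrIV:390474-390534, minus strand): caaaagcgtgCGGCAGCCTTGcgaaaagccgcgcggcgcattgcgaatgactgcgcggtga
ccdc-47 (chrIII:3916803-3916863, plus strand): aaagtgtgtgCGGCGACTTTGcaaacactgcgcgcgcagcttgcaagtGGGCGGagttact
C46F11.4 (chrIII:3664395-3664455, minus strand): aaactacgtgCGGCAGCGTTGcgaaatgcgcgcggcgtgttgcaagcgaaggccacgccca
dvc-1/ima-1 (chrV:11239344-11239404, minus strand): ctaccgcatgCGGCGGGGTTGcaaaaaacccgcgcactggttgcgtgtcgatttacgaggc
erfa-3/math-33 (chrV:11113339-11113399, minus strand): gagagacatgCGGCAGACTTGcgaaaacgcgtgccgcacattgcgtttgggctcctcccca
swsn-3 (chrIII:2768807-2768867, minus strand): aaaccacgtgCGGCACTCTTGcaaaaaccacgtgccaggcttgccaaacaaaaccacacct

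In these windows a second TTGC starts 21 or 22 bp after the first base of the TTG of the word. Over the 38 places, 20 had a TTGC that starts 15 to 30 bp after that base (52.6%), and 17 of those 22 to 24 bp after it. Of 9849 occurrences of the word in the genome 14.0% had one. Only 51 of the 9849 (0.518%) lay within 50 bp of a summit among the strongest 1000, so these letters alone go mostly without a strong region.

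The position of the word was set against the summit. Only places within 50 bp of the summit were counted, and the word was read from such windows, so nearness follows in part from that choice. Its middle was within 25 bp of the summit in 33 of 38 places, at a median distance of 12.5 bp. Out to 500 bp on each side, no 50 bp bin beyond these windows held more than 4 places. It fell 0 to 50 bp to the right of the summit in 30 places, and 0 to 50 bp to the left in 8, counted along the plus strand of the genome whatever the strand of the word. In 26 places it read on the strand of the nearest gene. Unique sequence surrounded it, with all 50-mers single in the genome for 35 of the 36 regions.

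**Figure D4:**
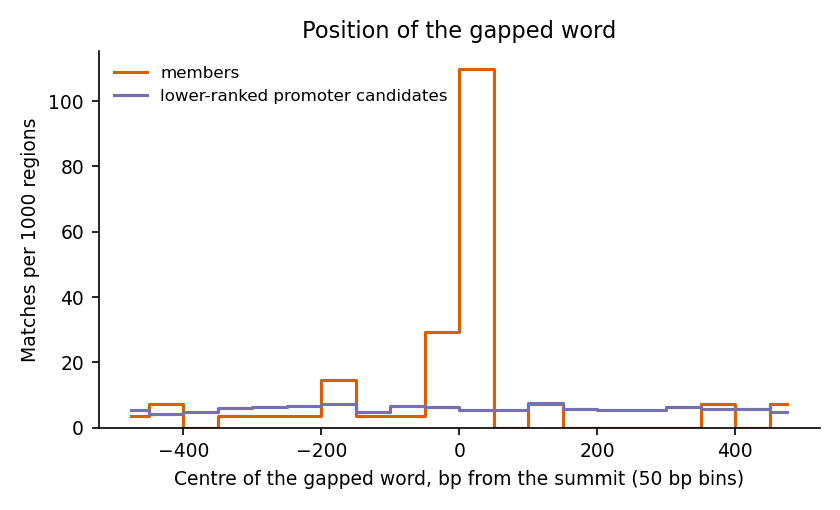
Matches of the gapped word per 1000 regions (y axis) by the position of its centre relative to the summit (x axis, bp along the plus strand, 50 bp bins), for the promoter regions and for lower-ranked promoter candidates. In the promoter regions, matches reach 110 per 1000 regions in the bin just right of the summit, against 5.53 among lower-ranked candidates.

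The word was more frequent where the signal was higher. It was in 17 of the 42 promoter regions of ranks 1 to 250 (40.5%), in 12.3% of ranks 251 to 519, in 6% of ranks 520 to 1000, and in 1.08% of ranks 1001 to 2000. On the IDR list 27 of 123 held it (21.95%), and among those of lower rank 9 of 150 (6%). All 8 windows it was read from were on the IDR list, and without them it was in 20.9% of the promoter regions on the list. Of the divergent regions 21 of 80 held it (26.2%), against 15 of 187 single ones (8.02%), and without the 8 windows 19 of 76 (25%) and 14 of 183 (7.65%). The word was settled on with all these regions in view, so the contrasts are a description. The median pooled signal was 135 with the word and 85.3 without. GGGCGG was also present in 14 of the 36.

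By chromosome, the word was in 9 of 32 regions on IV, 11 of 55 on III, 6 of 44 on I, 6 of 40 on V, 2 of 41 on II and 2 of 61 on X. The 36 regions were at 59 genes. Among these were spd-5, a centrosome scaffold gene, and npp-6, a nuclear pore gene, at 1 region. Its summit lay 200 bp downstream of the 5′ end of spd-5 and 375 bp upstream of npp-6. Others were rpn-7, a gene of the proteasome lid, mog-5, which encodes a splicing helicase, and smg-2, which encodes the central helicase of nonsense-mediated decay. Another was cebp-1, a C/EBP transcription factor gene. The summit lay 389 bp upstream of rpn-7 and 27 bp from the 5′ end of F49C12.9. At smg-2 it lay 609 bp upstream, and 55 bp from the 5′ end of haf-6. By contrast mog-5 was the nearer gene of its pair, at 179 bp.

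The genes were also counted by 21 lists, set beside all 19844 nuclear protein-coding genes outside the left-out families, of which 358 were at a region (1.80%). Of the 358, 171 were at a region on the IDR list. Of the 5007 genes with any candidate region that passed the same filters, these were 7.15%. A gene was counted when its promoter window held the summit, also where the 5′ end of another gene was nearer. Genes of the citric acid cycle, the respiratory chain and pyruvate dehydrogenase had 7 of 65 (10.8%), and 17.1% of those with a candidate. Those of highest signal were idhg-1, cox-5B, which encodes a subunit of cytochrome c oxidase (pooled signal 106, with 43.5 in replicate 1 and 59.9 in replicate 2), pdhk-2, a pyruvate dehydrogenase kinase gene (104, with 36.6 and 64.4), and cyc-1, a complex III subunit gene (101.1, with 39.3 and 59.6). In the last 3 the value of replicate 2 was the higher, and all 3 were at single promoters. Nuclear pore and import genes had 4 of 37 (17.4% of those with a candidate), all on the IDR list, with ima-1 at 191, npp-8 at 184, npp-6 at 144 and npp-14 at 102. At ima-1, npp-6 and npp-14 the 5′ end of the other gene of the pair was nearer to the summit. Translation factors had 4 of 41 (18.2% of those with a candidate), also all on the list. They were erfa-3, a release factor gene, at 168, and the initiation factor genes eif-3.C at 128, eif-3.D at 100.3 and eif-3.B at 94.9, of which eif-3.B had no match in replicate 1. The summit lay 290 bp upstream of eif-3.D and 24 bp from the 5′ end of another gene.

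Splicing genes had 4 of 44 (9.09%, and 19.05% of those with a candidate), with prp-19 at 105 and the divergent pair rsp-1 and rsp-2 in 1 region of 86.2, and snr-1 at 74.4. Of these 4 genes, 1 was on the IDR list, prp-19. The summit lay 628 bp upstream of prp-19 and 47 bp from the 5′ end of another gene. At snr-1 it lay 424 bp upstream, and 187 bp from another 5′ end. Genes of RNA polymerases and general transcription had 6 of 70 (17.6% of those with a candidate). Among them were the Mediator subunit genes mdt-6 at 174, mdt-26 at 98.2 and mdt-9 at 84.2 and the RNA polymerase II subunit gene rpb-11 at 83.98. Of these 6 genes, 2 were on the IDR list. The summit lay 898 bp upstream of mdt-6 and 8 bp from the 5′ end of another gene. At mdt-9 it lay 165 bp upstream, and 109 bp from another 5′ end. Histone genes had 6 of 81 (23.1% of those with a candidate), in 4 regions, since his-67 and his-68 share one and so do his-59 and his-60. Of these 6 genes, 2 were on the IDR list, his-67 and his-68. Their region and that of his-31 had no match in replicate 1. The region of his-59 and his-60 had 54.3 in replicate 1 and 23.5 in replicate 2, and that of hil-7 had 33.6 and 46.0. Vesicle traffic genes had 6 of 87, with vps-51 at 130 and rab-7 at 106 on the IDR list. The mitochondrial ribosome had 3 of 70, with mrps-34 at 121. Other lists stood nearer the share of all genes with a candidate, 7.15%. They were aminoacyl-tRNA synthetases (1 of 32, 7.69% of those with a candidate) and the proteasome (1 of 33, 6.25%). The same held for cell cycle genes (2 of 50, 6.90%) and ubiquitin enzymes (1 of 28, 9.09%). Of all their genes these lists had 3.03 to 4%, and the mitochondrial ribosome 4.29%, against 1.80%. No test was made on these lists, and each rests on 1 to 7 genes.

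The remaining lists were counted in the same way. Nuclear hormone receptor genes had 4 of 269 (1.49%, and 6.78% of those with a candidate), near the shares of all genes, 1.80% and 7.15%. They were nhr-142 at 94.2, nhr-48 at 87.6, nhr-32 at 78.8 and nhr-190 at 73.4. F-box and MATH genes had 5 of 401 (1.25%, and 7.25% of those with a candidate), also near the shares of all genes. All 5 were on the IDR list, against 171 of the 358 genes at any region. The signals were 168 at math-33, 143 at fbxc-44, 139.9 at fbxb-85 and 137 at fbxl-3. The summits lay 534 bp upstream of math-33, 321 bp upstream of fbxc-44 and 457 bp upstream of fbxl-3. In each of these 3 regions the 5′ end of another gene was nearer. Chemoreceptor genes had 4 of 1310 (0.305%, and 4.26% of those with a candidate), with sre-1 at 290.4 and sri-5 at 163 on the IDR list. The summit of the first lay 905 bp upstream of sre-1 and 89 bp upstream of B0495.9, and that of the second 254 bp upstream of sri-5. Collagen genes had 2 of 156 (1.28%, and 8% of those with a candidate), also near the shares of all genes. C-type lectin genes had 1 of 240 (0.417%, and 2.56% of those with a candidate). Cytochrome P450 and UGT genes had 1 of 141 (0.709%, and 3.85%). There was none among 63 homeodomain, 140 neuropeptide and 20 vacuolar ATPase genes, of which 20, 23 and 11 had any candidate region that passed the filters. At the share of all genes, lists of this size would hold few or no such genes, so nothing is read from these counts of 0.

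Genes were also looked at for operons, in which several worm genes are transcribed together from 1 promoter. A gene followed by another on the same strand within 500 bp was at 92 regions. This was 33.7% of the regions against 24.1% of lower-ranked promoter candidates, a difference of 9.62 points (interval 4.13 to 15.5). Within a type the shares were closer, with 53.75% against 47.2% at divergent and 22.99% against 19.4% at single promoters; a divergent region has more genes to count. In all, 9 genes had a pair of regions, among them W01D2.3 and the pair atx-2 and ecps-1, whose second region was at rank 645.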

How the data were processed

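Late embryos of 1 group with 2 biological replicates were analysed, from the ce11 peak lists. The authors deposited a signal value, a −log10 q value and a summit offset for each region, whose columns follow the narrowPeak layout. Regions were called per replicate and on the pooled replicates. Per the deposited readmes they derive from alignments of the replicates and of a control. No source used here names an aligner or peak caller. Depth is unknown, since read totals were not used. Summits were placed on the WBcel235 assembly with Ensembl release 115, with pandas 2.3.3 and numpy 2.4.6 under Python 3.11.15; figures used matplotlib 3.10.9.

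A region matched a replicate when a summit lay within 100 bp. Sequence was taken within 50 bp of the summit, on both strands. Shares have 95% Wilson intervals and differences Newcombe intervals, for counting error only, and no test was made. The functions were tested on simulated data. The promoters, lists and words were chosen with earlier results of these data known. Genes were named by rank (10 strongest, 6 per promoter type, those at each limit), as the 4 strongest of a list, or as nhr genes; those named for the gapped word were picked after its values were seen, as were the word, the rank blocks and the GC, X and intergenic subsets. The chemoreceptor list took named sr families, a narrower pattern than first set. Alternatives took 500 or 2000 regions, other promoter windows, transcript 5′ ends, other distances and families, and each replicate alone.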

Additional observations from a re-analysis of the deposited data

How the results depend on the processing

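Of 85 recomputed main values, 71 stayed within the interval of the value reported or within 1.5 times the count, and 14 moved. No paired analysis was possible because the samples form 1 group. With 500 regions there were 120 promoter regions, all on the IDR list by construction, so both IDR shares were 100%; the divergent share was 37.5% and 97.5% were matched in both replicates. With 2000 regions there were 552, of which 87.0% were matched in both; the IDR share was 32.9% at divergent and 19.4% at single promoters. Promoters from 500 bp upstream gave a divergent share of 23.6% and a median summit at -170.5 bp. A match within 200 bp gave 99.3% in both replicates. Divergence by the nearest 5′ ends gave 56.8%. By the promoter windows, without X, a setting added after seeing the data, the divergent share was 36.8%. Leaving out a replicate left 249 to 279 regions, with a divergent share of 28.5 to 31.9% and a median summit at -215 to -211 bp. A match in both replicates has no meaning there. The IDR list was still that of the pooled replicates, so the values that use it do not leave a replicate out in full. A summit of that list lay within 100 bp for 110 to 120 regions. The IDR share was 50.6 to 62.0% at divergent and 37.9 to 40.5% at single promoters. The difference in IDR share between divergent and single promoters was 10.02 points without replicate 1, with an interval that included 0, and 24.0 without replicate 2; of 12 settings that gave a difference, the interval was above 0 in 9. The gapped word, which is 1 of 13 spellings tried, was in 22.5% of the regions with 500 and 7.07% with 2000. The sequencing depth is unknown, so no limit of detection can be given.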

Other observations

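The strongest regions also differed in width. Of the 273, 17 were narrower than 470 bp, the width that the other 256 shared, and none of the 4701 lower-ranked promoter candidates was. The narrow regions had a median width of 220 bp and pooled signals from 164 to 439.8. Of these 17, 9 lay on chromosome III and 9 were divergent, and 7 held the gapped word.

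A noncoding RNA gene outside the excluded kinds lay within 200 bp of 17 regions (6.23%), of which 8 were on the IDR list. The share was close to that of the lower-ranked candidates, 5.81%. Examples were F08G2.5, with F08G2.13 at 13 bp, and epn-1, with T04C10.8 at 59 bp. Without these 17, the divergent share was 30.9% and the IDR share 57.0% at divergent and 40.9% at single promoters.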
